A study of Mus musculus with 9 samples.

Results

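The antioxidant and glutathione genes described here are 36 named genes of the 55536 in the RSEM gene tables, chosen by their known roles, with earlier results of these data known, and matched by symbol to the GENCODE M21 annotation of GRCm38. All 36 were found. Islets of C57B/L6 mice at 12 weeks of age were kept overnight in culture, dispersed and sorted on surface markers, giving 9 RNA libraries. The alpha-enriched subset (CD24low CD71-), the beta-enriched subset (CD24low CD71+) and the delta-enriched subset (CD24high) had 3 libraries each, and the labels name no transgene or treatment for any of them. Nothing in the labels says that the 3 libraries of a subset came from separate mice, so p-values measure only the spread between these libraries, which may be technical. In sorted bulk RNA, fewer cells of a type and less RNA per cell cannot be told apart.

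Superoxide dismutases turn superoxide into hydrogen peroxide, which is then removed by catalase, by glutathione peroxidases that spend glutathione, and by peroxiredoxins that spend thioredoxin. Glutathione reductase and the thioredoxin reductases restore these thiols with NADPH, and the transcription factor NRF2, held back by KEAP1, raises many of the genes under oxidative load. Rodent islets, and beta cells above all, are known for low catalase and low glutathione peroxidase activity compared with liver.

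The libraries held 5663141 to 9529920 expected counts. Summed alpha cell markers (10 genes) ran from 82395 to 101940 CPM in the alpha-enriched libraries, 538 to 782 in beta and 2781 to 7058 in delta. Summed beta cell markers (12 genes) ran from 53015 to 64081 CPM in beta, 4545 to 6586 in the alpha libraries and 6111 to 7389 in those of delta. Most of the delta sum was Iapp (mean 6202 CPM), with Ins1 and Ins2 in delta at 0.885% and 0.737% of beta. The 4 markers of PP cells summed to 2961 to 4013 CPM in alpha, 211 to 241 in beta and 4719 to 6632 in delta, and summed delta cell markers (7 genes) ran from 15876 to 22277 in delta and 89.9 to 219 elsewhere. The 18 acinar markers summed to 3670 CPM in delta replicate 3 and 651 in alpha replicate 1, against 31.3 to 341 in the other libraries. The 12 duct markers summed to 875 to 1043 CPM in alpha, 532 to 579 in beta and 717 to 955 in delta. The 8 Schwann cell markers summed to 74.0 to 99.4 CPM over all libraries. Ribosomal and 7S RNA took 41.5% of counts in beta replicate 2, against 6.13% to 10.3% elsewhere. The 15 immune markers summed to 5.66 to 16.3 CPM, with 6 of them at 0 in every library, the 12 endothelial markers to 2.68 to 11.6 CPM, with 3 at 0, and 6 of 7 erythroid markers were at 0. The 11 mesenchymal markers summed to 13.4, 52.0 and 16.6 CPM in the alpha libraries, 1.28 to 1.54 in beta and 3.41 to 9.12 in delta.

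Of the 36 members, 32 passed the filter on low counts and were compared between subsets. A difference was called by edgeR's quasi-likelihood test at a Benjamini-Hochberg adjusted p under 0.05 over all 15896 tested genes. Between beta and alpha, 11 members were higher in beta and 5 lower, where 26.6% of all tested genes differed, 14.8% higher and 11.9% lower. The count of higher members fell to 7 without alpha replicate 1, 7 without alpha replicate 2, 7 without alpha replicate 3 and 5 without beta replicate 2. Over all tested genes the count higher in beta also fell, from 2345 to 1925, 1877, 1964 and 1754 in these settings. Between beta and delta, 5 were higher in beta and 7 lower, against a background of 30.6% of tested genes, 15.4% higher and 15.3% lower. Between delta and alpha, 9 were higher in delta and 6 lower, where 24.3% of tested genes differed, 13.3% higher and 11.0% lower. The 6 lower members fell to 3 without alpha replicate 1, and the 9 higher members to 5 without alpha replicate 3. Over all tested genes the lower count fell from 1748 to 1406 and the higher count from 2120 to 1748 in these settings. The median log2 fold change of the 32 tested members was 0.16 for beta minus alpha, -0.14 for beta minus delta and 0.16 for delta minus alpha, beside medians of -0.02, -0.02 and 0.01 over all tested genes. The 3 comparisons share libraries, so their counts are not independent of each other. The lower members in both comparisons with alpha include Mgst1, which passed the filter through alpha alone. Members higher in beta than in alpha include Nqo1, which was under the filter in alpha and passed it only with beta libraries counted. By mean CPM, 10 of the 36 members were highest in alpha, 13 in beta and 13 in delta.

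**Figure D1:**
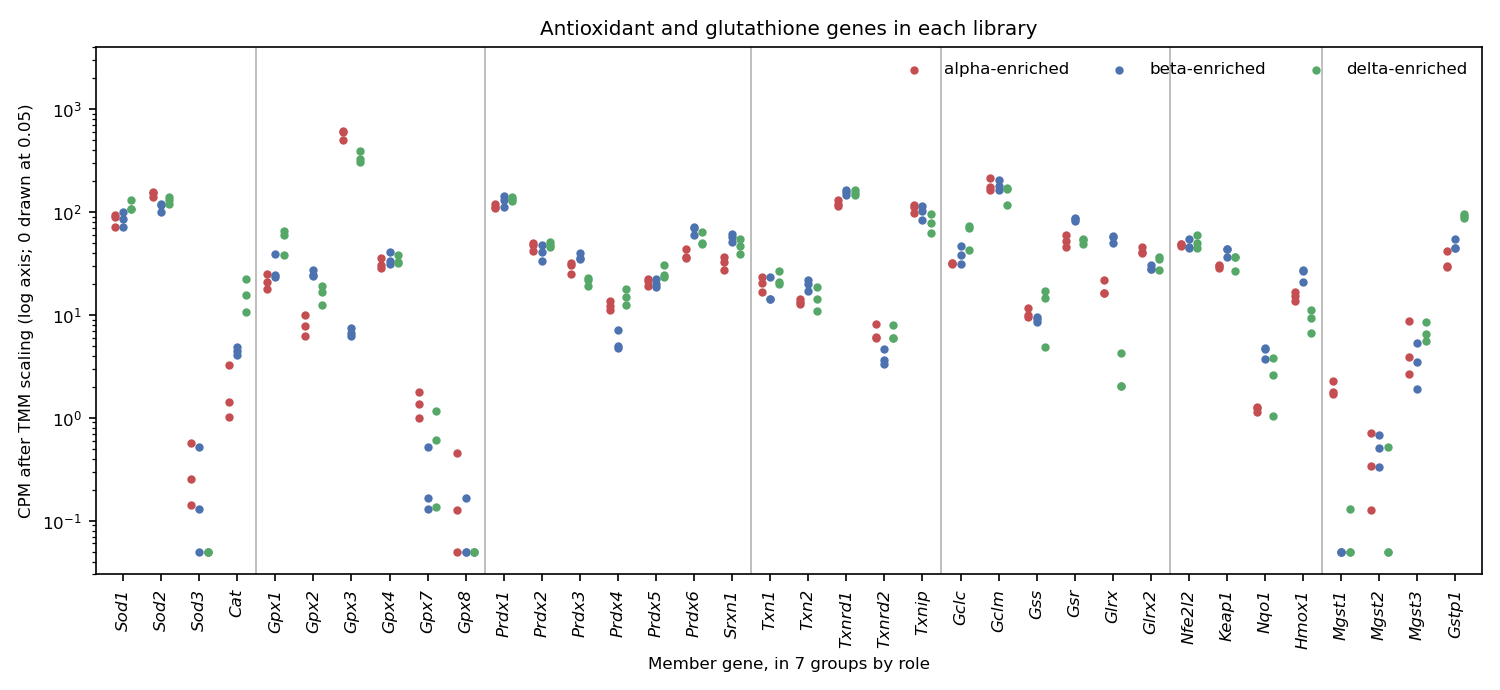
CPM after TMM scaling (log axis) of each of the 36 members in each of the 9 libraries, with members in 7 groups by role and a library at 0 drawn at 0.05. Gpx3 spans the widest range among the abundant members, from 6.29 CPM in a beta library to 617 in an alpha library, and most other members lie close together in all subsets.

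The core sequence of the antioxidant response element, to which NRF2 binds with a small MAF partner, was looked for in the promoters of the members. The motif TGACNNNGC was searched on both strands of the RefSeq windows (GRCm38.p6) from 250 bases before to 50 bases after each gene's start. Where its variable letters read TCA it overlaps the AP-1 motif TGACTCA. Windows were given for 31 members. The motif was in 7 of their 41 windows (17.1%), beside 12.4% of all 32851 windows of that length. The members were Sod1, Prdx1, Srxn1, Txnrd1, Gclm, Nfe2l2 and Mgst1, and Prdx1 carried the AP-1 form, TGACTCAGC, 133 bases before its start. In Srxn1 the match, TGACCTAGC, began 28 bases after the start. The 250 bases before the start are shown for Sod1, Txnrd1 and Mgst1, which were called in a comparison and hold the match upstream of a RefSeq start. Mgst1 passed the filter through alpha alone, so its calls are not support for a difference. Txnrd1 has 3 windows and the match is only in the second, whose start lies inside the gene, and Mgst1 has 2 windows, of which the first holds it. The match of Mgst1 also lies inside the gene as annotated in GENCODE, which starts at 138140316. Capitals mark the match, on the reverse strand in each, 56 bases before the start in Sod1 and Mgst1 and 92 in Txnrd1. The windows are chr16:90220512-90220761 (plus strand), chr10:82858956-82859205 (plus strand) and chr6:138140277-138140526 (plus strand).
Sod1: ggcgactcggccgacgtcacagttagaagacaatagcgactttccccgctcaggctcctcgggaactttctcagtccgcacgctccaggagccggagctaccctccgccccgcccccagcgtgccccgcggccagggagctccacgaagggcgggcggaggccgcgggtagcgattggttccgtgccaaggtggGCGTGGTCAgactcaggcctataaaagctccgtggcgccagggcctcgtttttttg
Txnrd1: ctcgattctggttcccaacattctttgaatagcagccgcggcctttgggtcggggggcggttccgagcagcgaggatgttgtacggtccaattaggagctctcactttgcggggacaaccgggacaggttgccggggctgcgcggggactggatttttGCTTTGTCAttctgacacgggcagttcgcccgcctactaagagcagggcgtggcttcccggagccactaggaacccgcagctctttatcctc
Mgst1: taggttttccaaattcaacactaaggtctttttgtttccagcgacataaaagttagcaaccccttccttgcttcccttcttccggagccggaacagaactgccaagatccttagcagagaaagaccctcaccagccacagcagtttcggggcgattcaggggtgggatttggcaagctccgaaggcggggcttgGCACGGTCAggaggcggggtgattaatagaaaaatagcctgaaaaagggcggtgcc
These 3 genes did not share a pattern: Txnrd1 was lowest in alpha, Sod1 was highest in delta and Mgst1 was detected almost only in alpha. A match describes the letters of the window and shows no binding.

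The superoxide dismutases Sod1 and Sod2 were abundant in every subset, and Sod3 was near 0. Sod1, the copper-zinc enzyme of the cytosol, was at 93.4, 90.0 and 71.5 CPM in the alpha libraries, 101, 85.9 and 71.1 in beta and 130, 107 and 107 in delta. All 3 delta libraries stood above those of alpha and beta, which overlapped each other. Delta was above alpha by a log2 fold change of 0.43 (SE 0.14, adjusted p = 0.0317), and Sod1 was lower in beta than in delta (-0.41, SE 0.14, adjusted p = 0.0322). The first call was lost without alpha replicate 2 or 3 or delta replicate 1 (0.31 to 0.46), and the second without beta replicate 2 or 3 or delta replicate 1 (-0.42 to -0.28). Sod2, the manganese enzyme of mitochondria, was at 151, 140 and 156 CPM in alpha, 116, 100 and 118 in beta and 130, 141 and 120 in delta. It was lower in beta than in alpha (-0.42, SE 0.10, adjusted p = 0.00521), with no overlap between these libraries, but the difference was -0.02 on log2(TPM + 1) and turned to 0.23 (adjusted p = 0.619, limma) when ribosomal and 7S RNA genes were removed first. Sod3, the secreted dismutase, had 0 to 5 expected counts per library and was not tested.

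Catalase RNA was low in alpha and beta and highest in delta. Cat, which encodes the peroxisomal enzyme that splits hydrogen peroxide (ENSMUSG00000027187, chromosome 2, 103453849 to 103485160), was at 1.03, 3.27 and 1.41 CPM in alpha, 4.88, 4.11 and 4.46 in beta and 10.7, 15.7 and 22.4 in delta. The 3 subsets did not overlap. Cat was higher in delta than in alpha (3.09, SE 0.41, adjusted p = 2.04e-05) and lower in beta than in delta (-1.85, SE 0.38, adjusted p = 0.00111). The delta library with the highest Cat was replicate 3, which also had the most acinar marker RNA. Alpha replicate 1, with the most acinar RNA of its subset, had the lowest Cat of all libraries. Without both of these libraries, a setting chosen after seeing the data, the differences were 2.47 (adjusted p = 0.00192) and -1.54 (adjusted p = 0.00856). The remaining delta libraries still held 341 and 230 CPM of acinar markers, against 99.9 and 80.8 in the remaining alpha libraries. The part of acinar RNA in the Cat result was not tested. Beta against alpha gave a smaller difference (1.24, SE 0.42, adjusted p = 0.0399). That call was lost without alpha replicate 1 or 3 or any beta library (0.92 to 1.28), and the value was 1.88 without alpha replicate 2. The 45 expected counts of Cat in the alpha libraries together limit this comparison, at 9, 26 and 10 per library.

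Gpx3 differed more than any other abundant member, and it was lowest in beta. This gene encodes a secreted, selenium-containing glutathione peroxidase known from plasma (ENSMUSG00000018339, chromosome 11, 54902453 to 54910377). It was at 595, 617 and 495 CPM in alpha and 323, 388 and 302 in delta, against 6.29, 6.68 and 7.43 in beta. The 3 subsets did not overlap. The difference of beta from alpha was -6.39 (SE 0.15, adjusted p = 2e-14) and that of beta from delta -5.64 (SE 0.14, adjusted p = 5.66e-14). Gpx3 was also lower in delta than in alpha (-0.75, SE 0.11, adjusted p = 4.64e-05). The level in beta was 1.20% of that in alpha, where the glucagon transcript Gcg stood at 0.440%. In delta, Gpx3 was at 59.4% of its alpha level, where Gcg stood at 4.90%. The summed PP cell markers were also low in beta, and higher in delta than in alpha. Summed duct markers were lowest in beta too, at 532 to 579 CPM, but the genes of that list differed. Krt7 was highest in beta, at a mean of 251 CPM against 125 in alpha and 118 in delta. Spp1, the largest of them in alpha (557 CPM), was at 110 in beta and 78.4 in delta. The part of any of these marker lists in the result was not tested. With each library left out in turn the log2 fold change stayed between -6.48 and -6.33 for beta minus alpha and between -5.71 and -5.52 for beta minus delta.

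The intracellular glutathione peroxidases had other patterns. Gpx1, the main cytosolic enzyme (ENSMUSG00000063856, chromosome 9, 108338903 to 108340343), was at 20.6, 25.1 and 17.8 CPM in alpha, 23.1, 24.2 and 39.3 in beta and 38.4, 59.3 and 64.9 in delta. Delta was above alpha (1.35, SE 0.23, adjusted p = 0.000416), with no overlap, and lower in beta than in delta (-0.91, SE 0.23, adjusted p = 0.00631), where beta replicate 3 lay just above delta replicate 1. The latter call was lost without both beta replicate 2 and delta replicate 3 (-0.66, adjusted p = 0.112). Acinar marker RNA was highest in delta replicate 3, where Gpx1 was also highest. Without that library and alpha replicate 1, again a setting chosen after seeing the data, the difference between delta and alpha was 1.18 (adjusted p = 0.0153). The part of acinar RNA in the Gpx1 result was not tested.

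Gpx2, an enzyme best known from gut epithelium (ENSMUSG00000042808, chromosome 12, 76792333 to 76795554), was highest in beta, at 27.2, 24.5 and 23.9 CPM, against 7.75, 6.17 and 10.0 in alpha and 16.7, 19.2 and 12.5 in delta. Beta was above alpha (1.66, SE 0.23, adjusted p = 2.42e-05), as was delta (1.01, SE 0.23, adjusted p = 0.00332). Beta was also above delta (0.65, SE 0.22, adjusted p = 0.0315), a call lost without any 1 beta library or without delta replicate 3 (0.50 to 0.69). Fntb lies across Gpx2 on the opposite strand, at 11.1 to 19.3 CPM, and the sources used here do not say whether the counting used strand. Gpx4, which reduces lipid peroxides in membranes, did not pass in any comparison, with means of 31.6 ± 3.81, 35.2 ± 4.96 and 34.1 ± 3.33 CPM in alpha, beta and delta (SD, n = 3). A transcribed copy, Gpx4-ps2, was at 5.26 to 11.3 CPM, so how reads were divided between the pair is uncertain. Gpx7 and Gpx8, enzymes of the endoplasmic reticulum, were not tested. Gpx7 had 7 to 14 expected counts per library in alpha, 1 to 3 in beta and 1 to 9 in delta, and Gpx8 had 0 to 4.

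**Figure D2:**
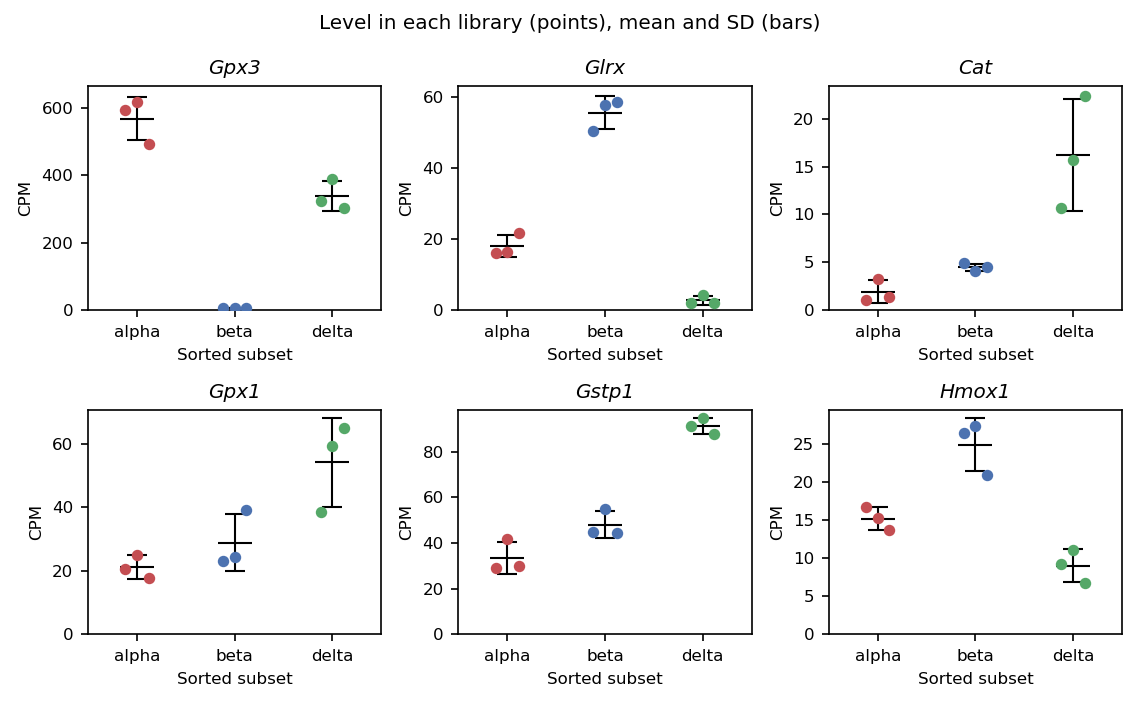
CPM of 6 members in each library (points) with the mean and SD of 3 libraries (bars), linear axes from 0. Gpx3 is near 0 only in beta, Glrx is near 0 only in delta and highest in beta, Cat, Gpx1 and Gstp1 are highest in delta, and Hmox1 is highest in beta.

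Peroxiredoxins, thiol peroxidases that are recharged by thioredoxin, were the more even family. Prdx1, the abundant cytosolic member, was at 109 to 120 CPM in alpha, 112 to 141 in beta and 127 to 138 in delta. Neither it nor cytosolic Prdx2 nor Prdx5 passed in any comparison, and the log2 fold changes of these 3 ran from -0.36 to 0.32. Prdx4, the peroxiredoxin of the endoplasmic reticulum, which feeds oxidising power into disulfide formation (ENSMUSG00000025289, chromosome X, 155323918 to 155340754), was lowest in beta. It was at 7.06, 4.798 and 4.95 CPM there, against 12.3, 13.6 and 11.1 in alpha and 17.8, 14.8 and 12.6 in delta. Beta lay below alpha (-1.13, SE 0.25, adjusted p = 0.00278) and below delta (-1.41, SE 0.25, adjusted p = 0.000340), with no overlap in either.

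Prdx3 and Prdx6 each differed between beta and 1 other subset. Prdx3, the mitochondrial member, was at 35.1, 35.6 and 39.9 CPM in beta, 30.2, 31.6 and 25.0 in alpha and 18.8, 21.6 and 23.0 in delta. It was higher in beta than in delta (0.80, SE 0.16, adjusted p = 0.000823), and beta minus alpha did not pass (0.35, SE 0.16, adjusted p = 0.119). Lower Prdx3 in delta than in alpha was close to the threshold (-0.45, SE 0.16, adjusted p = 0.0477), and that call was lost without any 1 of alpha replicates 1 and 2, delta replicates 1 and 2 and the 3 beta libraries (-0.47 to -0.38).

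Prdx6, which uses glutathione rather than thioredoxin, was at 70.4, 70.9 and 59.1 CPM in beta, 36.6, 43.7 and 35.98 in alpha and 63.6, 49.1 and 49.98 in delta. Alpha was below both other subsets, by 0.79 against beta (SE 0.14, adjusted p = 0.000359) and by 0.49 against delta (SE 0.14, adjusted p = 0.0173). The second call was lost without alpha replicate 1 or 3 or delta replicate 1 (0.35 to 0.43). Beta minus delta did not pass (0.30, SE 0.14, adjusted p = 0.116), and these libraries overlapped. Srxn1 encodes sulfiredoxin, which repairs overoxidised peroxiredoxins. It was also lowest in alpha, at 36.3, 32.2 and 27.5 CPM, against 57.1, 60.7 and 51.5 in beta and 46.4, 39.0 and 54.6 in delta. Beta was above alpha (0.81, SE 0.15, adjusted p = 0.000536). Delta was above alpha too (0.54, SE 0.15, adjusted p = 0.0141), a call lost without alpha replicate 2 or 3 or delta replicate 3 (0.41 to 0.53).

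Per unit of length, Gpx3 set the level of the glutathione peroxidase family. On the TPM scale, where genes of different length can be compared, the 6 glutathione peroxidase genes summed to 270 ± 30.2 TPM in alpha, 72.2 ± 18.8 in beta and 186 ± 49.6 in delta (SD, n = 3). Gpx3 made up 76.8% to 82.9% of this sum in the alpha libraries, 52.8% to 65.2% in delta and 3.38% to 3.68% in beta. Without Gpx3 the remaining 5 genes came to 53.4 ± 14.9, 69.7 ± 18.0 and 75.8 ± 28.1 TPM, ranges that overlapped. The 6 peroxiredoxins summed to 134 ± 21.6 TPM in alpha, 154 ± 25.9 in beta and 128 ± 25.3 in delta, so beta held more peroxiredoxin than glutathione peroxidase RNA per length, and alpha and delta the reverse. Catalase was at 0.540 ± 0.442, 0.953 ± 0.237 and 3.16 ± 1.57 TPM, below every peroxiredoxin mean in each subset.

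**Figure D3:**
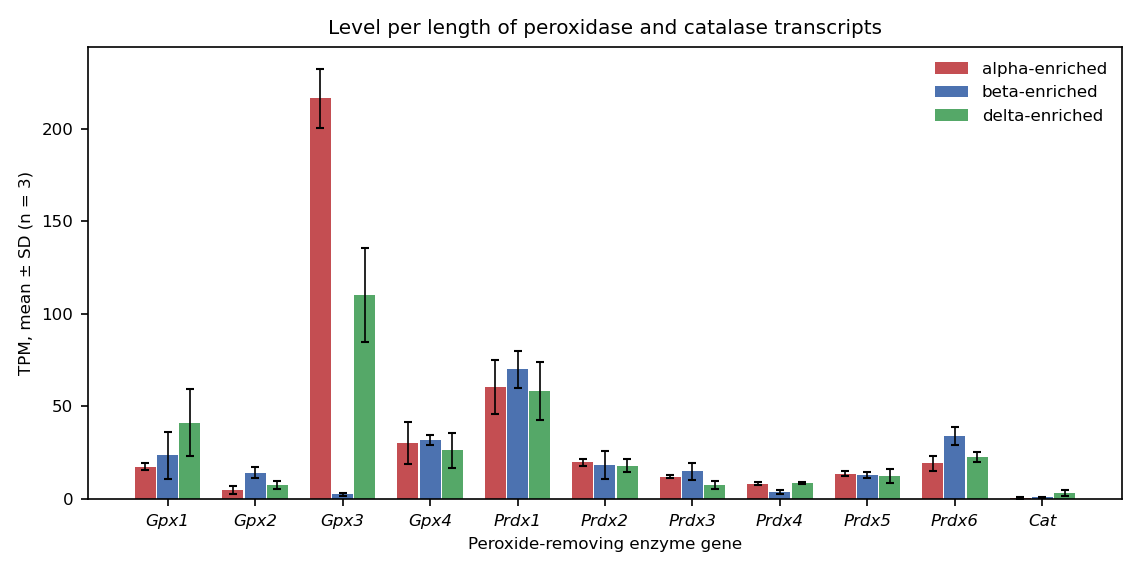
Level per length (TPM, mean ± SD of 3 libraries) of 4 glutathione peroxidases, 6 peroxiredoxins and catalase in the alpha-, beta- and delta-enriched subsets. Gpx3 is the tallest bar in alpha (216) and delta (110) and is at 2.54 in beta, where Prdx1 is tallest (70.2).

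Among all 36 members the TPM order was led by Gpx3, Sod1 and Prdx1 in alpha and by Gpx3, Sod1 and Gstp1 in delta. In beta it was led by Sod1 and Prdx1, at 70.4 ± 9.85 and 70.2 ± 9.95 TPM, which did not differ beyond their spread, followed by Gclm at 43.4 ± 10.5 and Gstp1 at 43.2 ± 7.39. Gpx3 held rank 27 in beta. Glrx, the cytosolic glutaredoxin, held rank 9 in beta, 20 in alpha and 30 in delta.

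The thioredoxin system, which recharges the peroxiredoxins, was close to even. Thioredoxin itself (Txn1) did not pass in any comparison, at 16.8 to 23.4 CPM in alpha, 14.3 to 23.1 in beta and 19.8 to 26.9 in delta. Mitochondrial thioredoxin (Txn2), at 17.0 to 22.0 CPM in beta and 12.8 to 14.1 in alpha, missed the threshold (0.54, SE 0.22, adjusted p = 0.0763) but passed without delta replicate 2 (adjusted p = 0.0427) or 3 (adjusted p = 0.0494). Txnrd1, the cytosolic reductase, was at 131, 113 and 120 CPM in alpha, 155, 162 and 145 in beta and 162, 154 and 145 in delta. Alpha was lowest, by 0.35 against beta (SE 0.10, adjusted p = 0.0125) and by 0.34 against delta (SE 0.10, adjusted p = 0.0153). The beta call was lost without alpha replicate 2 or beta replicate 2 (0.29 to 0.30), and the delta call without alpha replicate 2 or 3 (0.28 to 0.32). Txnrd2, the mitochondrial reductase, was at 3.30 to 4.62 CPM in beta, below 5.92 to 8.09 in alpha and 5.91 to 8.01 in delta, and did not pass (-0.79, SE 0.33, adjusted p = 0.0924 against alpha). Txnip encodes a thioredoxin-binding protein that glucose induces in islets. It was at 112, 117 and 97.1 CPM in alpha, 101, 114 and 82.8 in beta and 95.9, 77.4 and 62.1 in delta, and was lower in delta than in alpha (-0.47, SE 0.15, adjusted p = 0.0309). That call was lost without alpha replicate 1 or 2 or delta replicate 2 or 3 (-0.47 to -0.33).

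In glutathione synthesis the subunits of the first enzyme, glutamate-cysteine ligase, did not follow each other. Gclc, the catalytic subunit, was at 31.8, 31.0 and 31.7 CPM in alpha, 46.6, 38.0 and 30.9 in beta and 70.2, 42.6 and 73.5 in delta. Gclc was higher in delta than in alpha (0.98, SE 0.19, adjusted p = 0.00106) and lower in beta than in delta (-0.69, SE 0.19, adjusted p = 0.0107), where the libraries overlapped and the call was lost without beta replicate 3 or delta replicate 3 (-0.54 in each case). Gclm, the modifier subunit, was at 162 to 212 CPM in alpha, 163 to 202 in beta and 116 to 169 in delta and did not pass. Its difference between delta and alpha was -0.29 (SE 0.14, adjusted p = 0.165). Gss, which adds glycine to complete glutathione, did not pass either and ranged from 4.92 to 16.9 CPM among the delta libraries alone. Gss lies across Acss2, on the opposite strand and at 15.9 to 29.3 CPM.

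Glutathione reductase and glutaredoxin were highest in beta. Gsr, which returns oxidised glutathione to its reduced form with NADPH, was at 88.1, 81.4 and 84.3 CPM in beta, 59.6, 52.6 and 45.1 in alpha and 53.1, 54.0 and 48.4 in delta. The beta libraries stood above all others. The log2 fold change was 0.69 against alpha (SE 0.12, adjusted p = 0.000313) and 0.71 against delta (SE 0.12, adjusted p = 0.000216), and delta minus alpha was -0.02 (SE 0.12, adjusted p = 0.934).

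Glrx encodes glutaredoxin-1, which removes glutathione from protein thiols in the cytosol (ENSMUSG00000021591, chromosome 13, 75839868 to 75850154). It was at 50.2, 57.6 and 58.6 CPM in beta, 16.2, 16.2 and 21.6 in alpha and 2.05, 4.23 and 2.06 in delta. The 3 subsets did not overlap. Beta was above alpha by 1.62 on the log2 scale (SE 0.20, adjusted p = 9.53e-06) and above delta by 4.33 (SE 0.25, adjusted p = 5.76e-10). Glrx was also lower in delta than in alpha (-2.71, SE 0.25, adjusted p = 3.47e-07). The alpha level was 32.5% of that in beta, where Ins1 and Ins2 stood at 8.25% and 8.96%. In delta, Glrx was at 5.01% of the beta level, where Ins1 and Ins2 stood at 0.885% and 0.737%. The mitochondrial glutaredoxin Glrx2 went the other way between beta and alpha, at 27.6, 27.9 and 30.5 CPM in beta against 40.0, 46.0 and 40.8 in alpha (-0.56, SE 0.15, adjusted p = 0.0105). This call was lost without alpha replicate 2 (adjusted p = 0.0541) or beta replicate 1 (adjusted p = 0.0502), and the difference was -0.04 on log2(TPM + 1) without ribosomal and 7S RNA genes.

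The NRF2 gene itself was level across subsets. Nfe2l2, which encodes NRF2, was at 46.4 to 49.1 CPM in alpha, 44.9 to 54.0 in beta and 44.1 to 59.2 in delta, and its log2 fold changes were within -0.09 to 0.08. Keap1, which targets NRF2 for degradation, was at 36.2, 43.9 and 43.2 CPM in beta and 28.4, 30.3 and 29.5 in alpha (0.48, SE 0.16, adjusted p = 0.0304). That call was lost without any 1 alpha library or beta replicate 2 or 3 (0.42 to 0.50).

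Hmox1 and Nqo1, enzymes that NRF2 is known to induce, had higher CPM in the beta libraries than in those of alpha. Hmox1, which encodes haem oxygenase 1 (ENSMUSG00000005413, chromosome 8, 75093621 to 75100589), was at 26.5, 27.4 and 21.0 CPM in beta, 16.7, 15.2 and 13.7 in alpha and 9.29, 11.0 and 6.68 in delta. Beta was above delta (1.47, SE 0.22, adjusted p = 5.44e-05) and alpha (0.71, SE 0.21, adjusted p = 0.0188), and delta was below alpha (-0.76, SE 0.22, adjusted p = 0.0180). The call against alpha was lost without alpha replicate 2 or 3 or beta replicate 1 or 2 (0.63 to 0.71), and that of delta against alpha without alpha replicate 1 or delta replicate 3 (-0.70 to -0.59). Hmox1 is also a gene of macrophages. The summed immune markers were at 5.66 to 9.24 CPM in the alpha and beta libraries and 8.06 to 16.3 in delta, where Hmox1 was lowest, and their part in the result was not tested. Nqo1, a quinone reductase, was low, with 27 to 29 expected counts per beta library, 9 to 11 in alpha and 8 to 25 in delta. The log2 fold change of Nqo1 for beta minus alpha was 1.83 (SE 0.54), and its call was lost without alpha replicate 1 or 2 or beta replicate 2 or 3 (1.76 to 1.85). Nqo1 was under the filter on low counts in alpha and passed it only with beta libraries counted. Its call is therefore not support for a difference. Nqo1 in beta against delta did not pass (0.83, SE 0.52, adjusted p = 0.254), with overlapping libraries.

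Among the glutathione transferases, Gstp1 was highest in delta and Mgst1 was found almost only in alpha. Gstp1, which joins glutathione to electrophiles in the cytosol (ENSMUSG00000060803, chromosome 19, 4035407 to 4037985), was at 91.5, 95.0 and 87.9 CPM in delta, 44.7, 54.8 and 44.6 in beta and 28.8, 41.7 and 29.9 in alpha. Delta was above alpha (1.45, SE 0.15, adjusted p = 8.55e-07) and lower in beta than in delta (-0.93, SE 0.14, adjusted p = 7.84e-05). The smaller difference between beta and alpha (0.52, SE 0.15, adjusted p = 0.0141) was lost without alpha replicate 1 or 3 or beta replicate 2 (0.41 to 0.45). Gstp1 has near-identical copies, of which Gstp2 was at 0 to 1.03 CPM, Gstp-ps at 0.514 to 3.47 CPM and Gstp3 at 0, so its share of reads is uncertain.

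Mgst1, a microsomal transferase, had 20, 14 and 12 expected counts in the alpha libraries, 0 in each beta library and 1 in total in delta. It was at least 12.7-fold higher in alpha than in beta, against a floor of 3 counts over the 3 beta libraries, and the ratio of alpha to delta was 42.0 (95% exact counting interval 7.17 to 1693). Mgst1 passed the filter on low counts through alpha alone, so its calls in the test are not support for these differences. The summed mesenchymal markers were also highest in alpha, at 13.4 to 52.0 CPM against 1.28 to 1.54 in beta and 3.41 to 9.12 in delta. Their part in the Mgst1 result was not tested. Mgst3 was at 1.89 to 8.69 CPM over all libraries and did not pass, and Mgst2, with 0 to 5 expected counts per library, was not tested.

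**Figure D4:**
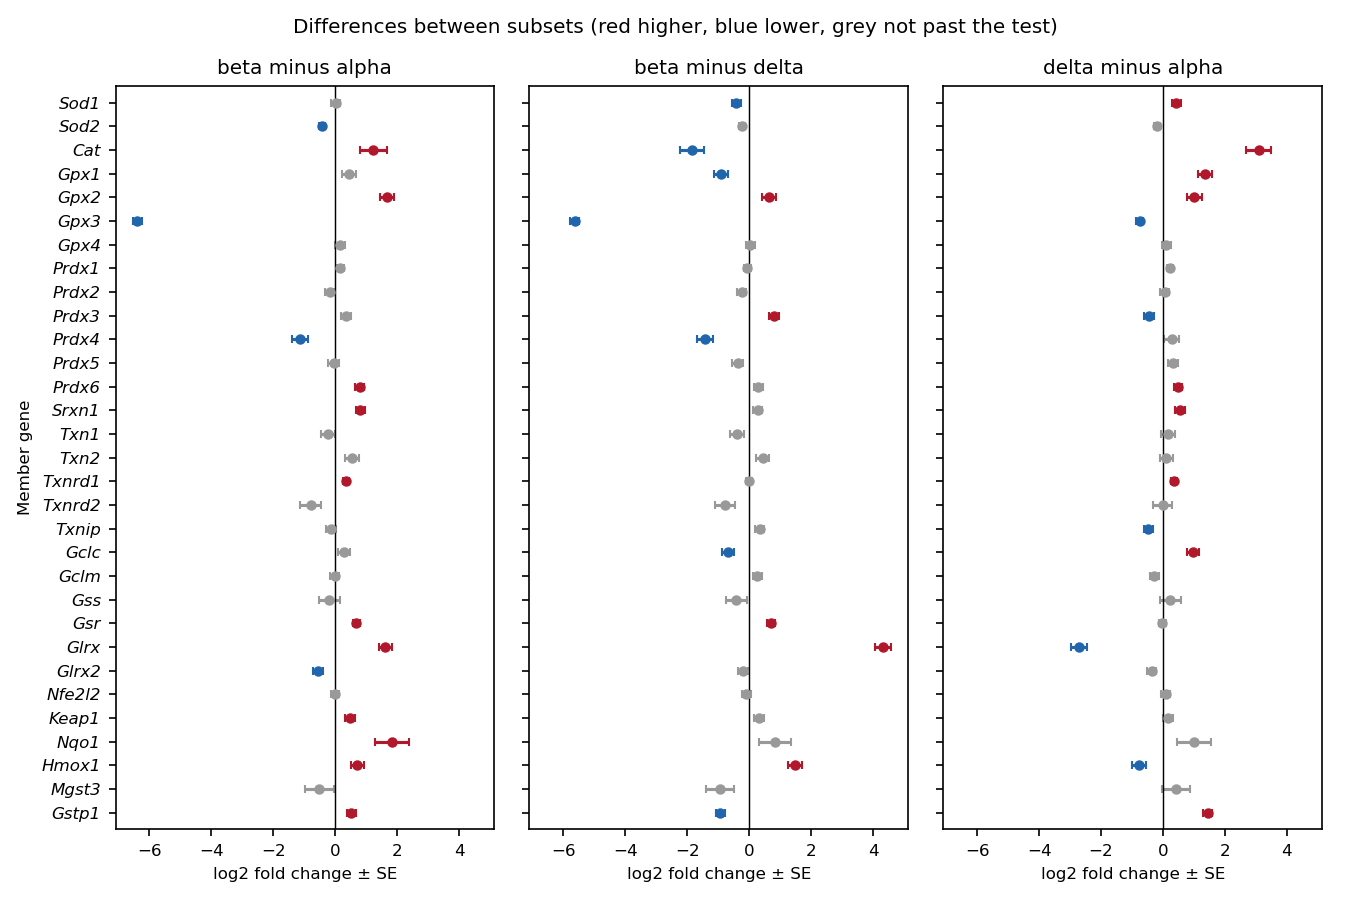
Log2 fold change ± SE of 31 tested members for beta minus alpha, beta minus delta and delta minus alpha (Mgst1, at 0 in beta, is left out). Red and blue points passed the test as higher or lower in the first-named subset. Gpx3 lies at -6.39 and -5.64 in the beta comparisons and Glrx at 4.33 for beta minus delta, and most others lie within 2 units of 0.

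Other genes of these pathways were counted in 8 lists, each beside the 26.6%, 30.6% and 24.3% of all tested genes called for beta against alpha, beta against delta and delta against alpha, with no test of a list. Of 18 gene models in the NADPH list, 6 were higher in beta than in alpha and 0 lower, 5 were higher in beta than in delta and 0 lower, and between delta and alpha 3 were higher and 3 lower. In either direction 6, 5 and 6 of the 18 were called, and the median log2 fold changes were 0.27, 0.39 and -0.07. G6pdx, the first enzyme of the pentose phosphate pathway, was at 34.0 ± 4.56 CPM in beta, above alpha (16.2 ± 1.58, log2 fold change 1.07, adjusted p = 0.000129) and delta (20.5 ± 1.69, 0.73, adjusted p = 0.00307). Idh2, the NADP-linked mitochondrial isocitrate dehydrogenase, reached 71.9 ± 3.68 CPM in beta, above 41.9 ± 1.13 in alpha (0.78, adjusted p = 6.72e-05). Among folate enzymes that also yield NADPH, Aldh1l2, of mitochondria, was at 236 ± 72.7 CPM in beta, against 41.9 ± 16.9 in alpha (2.49, adjusted p = 0.00258) and 24.7 ± 6.89 in delta (3.26, adjusted p = 0.000703). Mthfd1 reached 101 ± 2.60 CPM in beta, above 42.5 ± 4.10 in delta (1.25, adjusted p = 1.22e-07) and 73.9 ± 3.07 in alpha (0.45, adjusted p = 0.00426). Aldh1l1, the cytosolic relative, was at 3.89 ± 2.27 CPM in alpha and 2.84 ± 1.56 in beta, with overlapping libraries (-0.45, adjusted p = 0.699).

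Of 17 tested genes of cystine import, cysteine supply and glutathione turnover, 7 were higher in beta than in alpha and 0 lower, 5 higher and 3 lower between beta and delta, and 7 higher and 4 lower between delta and alpha. In either direction 7, 8 and 11 of 17 were called, beside 26.6%, 30.6% and 24.3% of all tested genes, with median log2 fold changes of 0.33, 0.22 and 0.16. Abcc4, a transporter that can carry glutathione, reached 70.7 ± 2.70 CPM in beta and 60.5 ± 3.38 in delta, against 17.5 ± 2.85 in alpha (2.02, adjusted p = 6.00e-09 for beta, and 1.79, adjusted p = 3.02e-08 for delta). Cbs, which starts the path from homocysteine to cysteine, reached 35.8 ± 6.70 CPM in beta, above 2.22 ± 1.21 in delta (4.0, adjusted p = 2.46e-08). Slc3a2, the heavy chain of the cystine transporter and of other amino acid transporters, was at 67.1 ± 13.9 CPM in delta, below alpha (151 ± 6.11, -1.17, adjusted p = 2.05e-06) and beta (123 ± 7.98).

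Among 12 tested further glutathione transferases, 5 were higher in beta than in alpha and 1 lower, 1 higher and 3 lower between beta and delta, and 4 higher and 0 lower between delta and alpha. That is 6, 4 and 4 of 12 called, beside 26.6%, 30.6% and 24.3% over all tested genes, and the medians were 0.75, 0.03 and 0.62. Gstm1 reached 80.0 ± 3.57 CPM in beta and 75.4 ± 9.62 in delta against 20.4 ± 1.93 in alpha (1.97, adjusted p = 4.94e-09, and 1.89, adjusted p = 1.06e-08), and its close relatives make the split of reads among Gstm genes uncertain. Gstt1 was at 33.9 ± 5.26 CPM in delta, above alpha (15.6 ± 2.64, 1.12, adjusted p = 0.000359) and beta (15.5 ± 2.66, -1.13 for beta minus delta, adjusted p = 0.000258).

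Selenoproteins, to which most glutathione peroxidases and the thioredoxin reductases belong, need their own synthesis factors. Of 24 genes of selenoprotein synthesis and other thiol oxidoreductases, 7 were higher in beta than in alpha and 2 lower, 8 higher and 1 lower between beta and delta, and 3 higher and 5 lower between delta and alpha. Calls numbered 9, 9 and 8 of 24, beside 26.6%, 30.6% and 24.3% over all tested genes, and the medians were 0.26, 0.13 and -0.02. Sephs2, which makes the selenium donor, was at 71.0 ± 4.18 CPM in beta, above alpha (29.1 ± 5.26, 1.28, adjusted p = 3.27e-06) and delta (36.3 ± 3.95, 0.97, adjusted p = 5.92e-05). Sepsecs, which completes selenocysteine on its transfer RNA, was at 196 ± 18.6 CPM in beta against 127 ± 6.21 in alpha (0.62, adjusted p = 0.000543) and 93.1 ± 14.8 in delta (1.07, adjusted p = 1.62e-06). Selenop encodes a protein that carries selenium outside cells and is secreted like the Gpx3 product. It was at 502 ± 66.6 CPM in alpha and 305 ± 11.4 in delta (-0.72, adjusted p = 3.03e-05). In beta it was at 375 ± 26.3 CPM, so it did not share the low beta level of Gpx3.

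Of 14 partners and regulators of NRF2, 4 were higher in beta than in alpha and 3 lower, 6 higher and 0 lower between beta and delta, and 3 higher and 5 lower between delta and alpha. Together 7, 6 and 8 of 14 were called, beside 26.6%, 30.6% and 24.3% over all tested genes, and the medians were 0.14, 0.32 and -0.20. Bach1, a repressor that competes with NRF2 at its sites, was at 85.9 ± 6.11 CPM in beta, above alpha (52.4 ± 1.71, 0.71, adjusted p = 0.000184) and delta (59.5 ± 7.86, 0.53, adjusted p = 0.00223). Its relative Bach2 was at 7.32 ± 1.38 CPM in alpha and 0.987 ± 0.215 in beta. Bach2 was under the filter on low counts in beta and passed it only with alpha libraries counted. A call of Bach2 against alpha is therefore not support for a difference. Mafg, a small MAF partner, was at 97.3 ± 5.35 CPM in alpha and 58.1 ± 2.24 in delta (-0.75, adjusted p = 5.35e-05). Of 15 tested further genes that NRF2 is known to induce, 5 were higher in beta than in alpha and 1 lower, 4 higher and 1 lower between beta and delta, and 4 higher and 2 lower between delta and alpha. Beside 26.6%, 30.6% and 24.3% over all tested genes, 6, 5 and 6 of 15 were called, with medians of 0.35, 0.16 and 0.36. The ferritin chains Ftl1 and Fth1, which store iron, were at 423 ± 31.4 and 319 ± 7.77 CPM in beta, against 183 ± 10.6 and 205 ± 12.6 in alpha (1.21, adjusted p = 1.96e-08, and 0.64, adjusted p = 2.42e-05).

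Among genes whose products make superoxide or hydrogen peroxide, 8 of 21 passed the filter on low counts, of which 3 were higher in beta than in alpha and 0 lower, 5 higher in beta than in delta and 0 lower, and 0 higher and 4 lower in delta than in alpha. These were 3, 5 and 4 of 8, beside 26.6%, 30.6% and 24.3% over all tested genes, with medians of 0.48, 1.09 and -0.68. Maob, a monoamine oxidase of the outer mitochondrial membrane that releases hydrogen peroxide, was at 170 ± 18.1 CPM in beta, 115 ± 5.66 in alpha and 12.8 ± 1.91 in delta (3.73 for beta minus delta, adjusted p = 1.69e-12). Ero1l, an oxidase of disulfide formation, was at 238 ± 19.3 CPM in beta against 135 ± 15.4 in alpha (0.82, adjusted p = 0.000295) and 96.7 ± 23.0 in delta (1.30, adjusted p = 2.64e-06). Its relative Ero1lb was at 1985 ± 116 CPM in beta, 280 ± 51.5 in alpha and 43.9 ± 12.8 in delta.

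Of 4 tested genes of metal binding and copper delivery, 2 were higher in beta than in alpha and the same 2, Mt1 and Mt2, were higher in beta than in delta. Between delta and alpha 0 of the 4 passed (edgeR), and 1 of them had an unadjusted p under 0.05. Over all tested genes the shares called were 26.6%, 30.6% and 24.3%. The medians of the 4 were 1.26, 1.38 and -0.12 for beta minus alpha, beta minus delta and delta minus alpha. Mt2, a metallothionein that binds zinc and copper, was at 119 ± 41.4 CPM in beta against 36.6 ± 12.1 in alpha (1.70, adjusted p = 0.00733) and 18.4 ± 6.48 in delta (2.69, adjusted p = 0.000713). Mt1 varied more, at 341 ± 156 CPM in beta and 104 ± 38.4 in alpha (1.71, adjusted p = 0.0265), a call lost without alpha replicate 1 (1.54) or alpha replicate 2 (1.59). The call of Mt1 against delta (1.77) was lost without delta replicate 1 (1.65) or delta replicate 2 (1.66).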

How the data were processed

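RNA from 3 sorted islet subsets was sequenced as strand-specific, paired-end libraries after ribosomal RNA depletion, per the labels' protocols. The authors deposited RSEM gene tables with expected counts and TPM, and per the submitters' processing notes used STAR 2.5.2b, RSEM and GRCm38.p6. Whether counting used strand, and the version of RSEM, are not given in the sources used here. Of the 36 members, 11 had expected counts that were not whole, since RSEM shares reads among similar genes, and 11 overlap another gene at 1 CPM or more.

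Expected counts were rounded, filtered with filterByExpr (15896 genes left), scaled by TMM and tested 2-sided in edgeR 4.0.16 under R 4.3.3 (quasi-likelihood, all 9 libraries, 1 coefficient per subset), with Benjamini-Hochberg adjustment over all tested genes at 0.05. Adjusted p-values come from this edgeR fit, except where limma is named. CPM is scaled by TMM, and a mean ± SD is over 3 libraries. Fits were tested on simulated data. All 36 members could be named, and of the other lists at most 3 genes with the smallest p per comparison, plus any NADPH gene. Members and lists were chosen with earlier results of these data known. The intervals and the floor reflect counting error alone. As alternatives, the tests were repeated with other scaling factors and filters, DESeq2 1.42.0, with limma 3.58.1 on log2(TPM + 1) and log2(TPM + 0.1), other sets of libraries and a replicate block.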

Additional observations from a re-analysis of the deposited data

How the results depend on the processing

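Of the 43 calls of members, 26 held without any single library, and 10 held in each of the 22 other settings that gave a value. These were Gpx3 and Glrx for beta against both other subsets, Glrx, Cat, Gstp1 and Mgst1 between delta and alpha, and Gpx2 and Mgst1 between beta and alpha. Mgst1 entered the test through alpha alone, so its 2 calls are no sign of stability, and neither it nor Cat had a value with at least 10 counts in every library. No member's call changed with the DESeq2 test or with DESeq2 size factors.

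On log2(TPM + 1) with limma, the counts of tested genes called were 1765, 2446 and 1807 for beta against alpha, beta against delta and delta against alpha, and on log2(TPM + 0.1) they were 1819, 2480 and 1782. Members higher then numbered 4 for beta against alpha and 2 for delta against alpha on both scales. Members lower in beta numbered 3 against alpha on both, and 4 and 3 against delta. After removal of ribosomal and 7S RNA genes from TPM, 2278 genes were called for beta against alpha and 1802 for delta against alpha. With that scaling 3 members were lower in beta than in alpha, 9 higher and 3 lower in beta than in delta, and 2 higher in delta than in alpha, and Sod2 turned from -0.42 to 0.23 for beta minus alpha. It put the median of all tested genes at 0.13 for beta minus alpha and 0.25 for beta minus delta, where the counts higher and lower were 1554 and 724, and 2384 and 1062, beside 2345 and 1886, and 2442 and 2427, in edgeR. On log2(TPM + 0.1) the median for delta minus alpha was -0.22, and the cause of these differences was not tested.

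Testing for a log2 fold change beyond 1 called 1211, 1468 and 1039 genes, with 2 members higher and 2 lower in beta than in alpha, 1 higher and 1 lower than in delta, and 2 higher and 2 lower in delta than in alpha. Leaving out 1 library at a time gave 5 (without beta replicate 2) to 12 members higher in beta than in alpha, 5 (without alpha replicate 3) to 9 higher in delta than in alpha and 3 (without alpha replicate 1) to 6 lower. Over all tested genes the counts in the 3 named settings were 1754, 1748 and 1406, beside 2345, 2120 and 1748 with all libraries. Without both beta replicate 2 and delta replicate 3, 6 members were higher in beta than in alpha and 3 lower in delta than in alpha, beside 1767 and 1516 of all tested genes. Without both alpha replicate 1 and delta replicate 3, a setting chosen after seeing the data, 3 members were lower in delta than in alpha, beside 1396 of all tested genes.

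With the replicate number as a block, 4625, 5241 and 4294 genes were called, no member lost a call, and members gained 2 calls higher in beta than in delta and 1 lower in delta than in alpha. Deviations of same-numbered libraries correlated by 0.00566 to 0.144, above 0 in all 9 pairs and above 0.1 in 3. Of 18 pairs with different numbers, 13 were below 0. Deviations were taken from each subset's own mean and sum to 0 there, so same-numbered pairs above 0 push the others below 0. The count of 13 is therefore no further sign of pairing. Every alpha library correlated best with its own number, and beta replicates 2 and 3 were slightly closer to a delta library of another number. The same-numbered correlations above 0 are only a hint of pairing from the data, since no more than 3 of the 9 were above 0.1. Low counts limit Cat in alpha, Nqo1, Mgst1 and the 4 untested members.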
